A study of Bos taurus with 28 samples.

Results

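Mammary tissue of lactating Holstein-Friesian dairy cows was compared between 13 cows heterozygous at DGAT1, with 1 lysine and 1 alanine allele (KA), and 9 cows homozygous for alanine (AA). These 22 arrays, of 28 in the series, were chosen by genotype. The AA group holds 11 arrays in all. The arrays AA 2 and AA 9 were left out of the main reading because they stood apart from the rest in earlier results of these data. The reading with them is given for DGAT1, for the counts and for the list medians that they moved most. It is also given for genes with a difference stated here that they moved by over 1.5 times. The remaining 4 arrays came from cows homozygous for lysine (KK) and entered the main model only through the shared estimate of the spread. In the fits with array weights, array number as a covariate or quantile normalization, they could also shift the difference between KA and AA. Each cow gave 1 surgical biopsy, whose RNA was hybridised to its own 1-colour Affymetrix Bovine Genome Array. The cows were in mid-lactation at 153 ± 32.8 days in milk, gave 25.7 ± 3.08 kg of milk per day with 4.3 ± 0.12% fat, and all ate a ration of maize and grass silage with concentrates. Genotypes came from an allelic discrimination assay on DNA of the same biopsies, and age, parity and relatedness of the cows were not used here.

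DGAT1 encodes an enzyme of the endoplasmic reticulum that joins the last fatty acid to diacylglycerol and so completes triacylglycerol, the main lipid of milk fat. The lysine form of the bovine enzyme is known for higher milk fat content. In secretory mammary cells, fatty acids are made from acetate or taken up from blood, are activated to acyl-CoA and esterified, and leave the cell as lipid droplets wrapped in membrane. The comparison asks which transcripts differ in the gland between carriers of 1 lysine allele and cows with none.

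Each value is on the log2 scale, relative to a baseline of its own probe set, so levels of different genes cannot be set against each other. A difference of 1 is 2-fold. A rough signal class of 3 could be read from rounding steps alone, and it is no level. In the brightest class lay the probe sets of the caseins CSN1S1, CSN1S2, CSN2 and CSN3, the whey proteins LALBA and PAEP, the fat globule protein BTN1A1, the fatty acid enzymes FASN and SCD and the epithelial genes KRT19 and EPCAM, while that of KRT8, a luminal keratin, lay in the dimmest. Across 24016 probe sets the SD of an array's values was 0.24 to 0.35 in KA arrays and 0.21 to 0.35 in the 9 AA arrays, against 0.86 in AA 2 and 0.78 in AA 9. KA arrays had 95 to 394 probe sets beyond 2-fold of the baseline and the 9 AA arrays 62 to 449, while AA 2 had 4807 and AA 9 had 3699. AA 2 and AA 9 correlated at r = 0.75 over all probe sets, and the highest pair among the KA arrays and the 9 AA arrays reached 0.54. As a sign of RNA quality, 3′ minus 5′ values were taken from control probe sets for actin and GAPDH. Each value is relative to its own baseline, so the result compares arrays and is no excess of 3′ over 5′ signal. It ran from -0.32 to 0.14 in KA arrays and from -0.20 to 0.34 in the 9 AA arrays. AA 2 had 0.60 and AA 9 had -0.44.

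Genotype overlapped with array number, a running number from 29 to 56 in the sample titles. Of the KA arrays, 2 had numbers from 29 to 42 and 11 had numbers from 43 to 56. Of the 9 AA arrays, 7 had numbers from 29 to 42 and 2 had numbers from 43 to 56. The labels do not say if these numbers follow the hybridisation or form batches. Differences within the ranges are therefore given for the lists, for genes whose sign they turn and for some others, and differences from a model with the range as a term for a few genes.

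No gene passed the test between KA and AA cows. With limma over 24016 probe sets, 0 had a Benjamini-Hochberg adjusted p under 0.05 (0.0%), and the smallest adjusted p was 0.0936. At an unadjusted p under 0.05, 1249 probe sets were higher in KA (5.2%) and 1032 were lower in KA (4.3%). The probe set with the smallest adjusted p has no gene symbol and was singled out after its values were seen. It ranged from -0.62 to 0.08 with a median of -0.41 in KA arrays, and from -0.03 to 0.30 with a median of 0.05 in AA arrays, a difference of -0.46 ± 0.08 (SE). Not a single probe set had all 13 KA arrays above all 9 AA arrays, or all below (0 of 24016 each way). With AA 2 and AA 9 included, again 0 probe sets passed, the smallest adjusted p was 0.0602, and 2589 probe sets were higher (10.8%) and 2658 lower (11.1%) at an unadjusted p under 0.05.

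The count of calls depended on AA 1, on array weights and on how array number was handled. Without AA 1, 26 probe sets passed the adjusted threshold (0.108%), 14 higher and 12 lower in KA. With weights that count variable arrays less, 41 passed (0.171%), 23 higher and 18 lower in KA, and 22 of the 26 were among these 41. AA 1 had the lowest weight of all arrays, 0.44, and 6 of the other 8 AA arrays had weights from 1.15 to 1.62. With the range of array numbers as a term, 1 probe set passed (0.00416%), and with array number as a covariate 12 did (0.05%). Within array numbers 29 to 42, where 2 KA arrays met 7 AA arrays, 0 passed and 917 had an unadjusted p under 0.05 (3.82%). Within 43 to 56, where 11 KA arrays met 2 AA arrays, 6 passed (0.025%). A test of whether KA minus AA differed between the ranges called 0 probe sets, with a smallest adjusted p of 0.0758 and 2045 at an unadjusted p under 0.05 (8.52%).

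DGAT1 itself was higher in KA than in AA cows. KA arrays KA 1 to KA 13 read -0.06, 0.26, 0.01, 0.36, 0.14, 0.51, 0.33, 0.14, 0.44, 0.64, 0.60, 0.53 and 0.57. The 9 AA arrays read -0.28, -0.09, 0.10, -0.17, -0.15, 0.07, 0.05, 0.56 and 0.12 for AA 1, AA 3 to AA 8, AA 10 and AA 11. The groups overlapped, with 3 KA arrays above the highest AA array and 4 AA arrays below the lowest KA array. The mean was 0.34 ± 0.23 in KA (SD, n = 13) and 0.02 ± 0.25 in AA (SD, n = 9), a difference of 0.32, or 1.25-fold, with an exact two-sided permutation p of 0.00669. Over all probe sets the limma adjusted p was 0.305 (SE 0.11), so DGAT1 did not pass there. With AA 2 at -0.76 and AA 9 at 0.29 included, the difference was 0.37 (permutation p = 0.004).

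The difference in DGAT1 was smaller within each range of array numbers. In arrays 29 to 42 the mean was 0.10 ± 0.23 in KA (SD, n = 2) and -0.07 ± 0.14 in AA (SD, n = 7), a difference of 0.17 with an exact permutation p of 0.222. In arrays 43 to 56 it was 0.39 ± 0.21 in KA (SD, n = 11) and 0.34 ± 0.31 in AA (SD, n = 2), a difference of 0.05 with an exact permutation p of 0.795. With the range as a term in limma the difference was 0.10 (unadjusted p = 0.395), and with array number as a covariate it was 0.17 (unadjusted p = 0.0663). The 4 highest KA values belonged to KA 10 to KA 13, whose array numbers run from 52 to 55. Without these 4 arrays the mean was 0.24 ± 0.19 in KA (SD, n = 9), the difference was 0.21 and the exact permutation p was 0.0589. The highest AA value, 0.56, came from AA 10 with array number 51. KK cows, all with numbers from 29 to 42, averaged 0.55 and lay 0.52 above the 9 AA arrays in the model without array number.

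**Figure D1:**
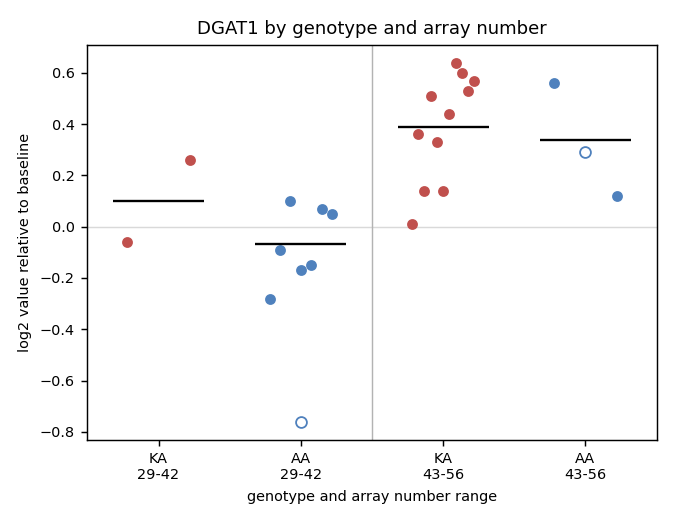
DGAT1 log2 values relative to the baseline of its probe set, 1 point per cow, by genotype (KA red, AA blue) and range of array numbers; black lines are means of the filled points, and the open points are AA 2 and AA 9, which the means leave out. KA and AA means lie closer together within each range (0.17 and 0.05 apart) than over all arrays (0.32 apart).

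Genes that lie next to DGAT1 on chromosome 14 were read from the RefSeq order, 15 named genes on each side, of which 16 were measured. Of these, 12 were higher and 4 lower in KA, 1 of them at an unadjusted p under 0.05, GPAA1 (6.25%, against 4.61% of all 9155 genes in this direction). The median difference was 0.06, against 0.01 over all genes, but it was -0.04 with the range of array numbers as a term, -0.01 within 29 to 42 and -0.06 within 43 to 56. GPAA1, a subunit of the complex that attaches GPI anchors to proteins, ranged from -0.13 to 0.45 with a median of 0.19 in KA arrays and from -0.44 to 0.47 with a median of -0.09 in AA arrays. Its difference of 0.19 ± 0.09 (SE) became -0.03 with the range term and was -0.16 within 43 to 56. TONSL, a replication-repair factor, was 0.11 higher, CYC1, the cytochrome c1 subunit of complex III, 0.13 higher and CYHR1 0.13 higher (-0.02 within 43 to 56), each at an unadjusted p above 0.05. TONSL was 0.19 and CYC1 0.25 higher when AA 2 and AA 9 were included.

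Genes of triacylglycerol synthesis showed no common direction. Of 13 measured genes, 8 were higher and 5 lower in KA, with a median of 0.06, and 2 had an unadjusted p under 0.05, both higher (15.4%, background 4.61%): DGAT1 and DGAT2, the second acyltransferase that can finish triacylglycerol. DGAT2 ranged from -0.21 to 0.41 with a median of 0.02 in KA arrays and from -0.50 to 0.39 with a median of -0.16 in AA arrays, a difference of 0.21 ± 0.10 (SE, adjusted p = 0.509), with 0.23 within array numbers 29 to 42 and 0.05 within 43 to 56. GPD1, which makes the glycerol phosphate backbone, was 0.17 higher, -0.05 in difference within 43 to 56 and 0.78 higher with AA 2 and AA 9 included. GPAM, the acyltransferase that adds the first fatty acid, was -0.05 in difference, but 0.32 higher with AA 2 and AA 9 included. The mean over the list was 0.11 ± 0.13 in KA arrays (SD, n = 13) and 0.04 ± 0.08 in AA arrays (SD, n = 9). Within array numbers 29 to 42 the median difference was -0.04 and within 43 to 56 it was -0.02.

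Most regulators of lipid synthesis were slightly higher in KA, none past the adjusted threshold. Of 20 measured, 18 were higher, with a median of 0.11, but only PRKAA1 had an unadjusted p under 0.05 (5.0%, background 4.61%). PRKAA1, a catalytic subunit of the energy sensor AMPK, ranged from -0.49 to 0.50 with a median of 0.05 in KA arrays and from -0.56 to 0.07 with a median of -0.20 in AA arrays, and 6 of 13 KA arrays lay above every AA array. Its difference was 0.23 ± 0.10 (SE), and 0.12 with AA 2 and AA 9 included. The sterol sensors NR1H2 and NR1H3, also called LXR beta and LXR alpha, were 0.17 and 0.12 higher, but -0.04 and -0.06 in difference within 29 to 42. Another NR1H3 probe set gave -0.11, and with AA 2 and AA 9 included NR1H3 was 0.24 higher. SREBF1, the transcription factor that drives lipogenic genes, and INSIG1, which holds it back, were each 0.21 higher, at unadjusted p of 0.144 and 0.253. SREBF1 was 0.01 higher within 29 to 42 and 0.04 within 43 to 56, and INSIG1 was 0.19 and 0.44 higher there. With AA 2 and AA 9 included, SREBF1 was 0.47 and INSIG1 0.65 higher. The list mean was 0.14 ± 0.09 in KA arrays (SD, n = 13, range 0.02 to 0.35) and 0.02 ± 0.07 in AA arrays (SD, n = 9, range -0.14 to 0.10). Within array numbers 29 to 42 the median difference was 0.00, with 10 of 20 higher, and within 43 to 56 it was 0.08.

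Genes of cholesterol synthesis and uptake were likewise higher in KA in 14 of 15 members, with a median of 0.11 and 0 at an unadjusted p under 0.05 (0.0%). HMGCS1, the enzyme that commits acetoacetyl-CoA to the mevalonate pathway, ranged from -0.69 to 0.80 with a median of 0.02 in KA arrays and from -1.51 to 0.48 with a median of -0.13 in AA arrays, a difference of 0.40 ± 0.21 (SE). TM7SF2, a sterol reductase, was 0.30 ± 0.16 higher (SE), 0.51 higher with AA 2 and AA 9 included and -0.08 in difference within 29 to 42. The list median kept its sign within both ranges of array numbers, at 0.12 within 29 to 42 and 0.27 within 43 to 56. Within 43 to 56, however, the list mean was -0.50 in AA 10 and 0.01 in AA 11, while KA arrays averaged 0.02. The difference there thus came from AA 10. The list mean ran from -0.20 to 0.29 in KA arrays and from -0.50 to 0.23 in AA arrays, so the groups overlapped.

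Fatty acid synthesis was mixed. Of 16 measured genes, 10 were higher and 6 lower, with a median of 0.05 and 2 at an unadjusted p under 0.05, both higher (12.5%, background 4.61%). ACACA, acetyl-CoA carboxylase and the committed step of fatty acid synthesis, ranged from -0.23 to 1.60 with a median of 0.66 in KA arrays and from -0.55 to 0.80 with a median of 0.23 in AA arrays, a difference of 0.54 ± 0.20 (SE, adjusted p = 0.376). The highest value belonged to KA 10, and 6 of 13 KA arrays lay above every AA array. The difference was -0.15 within array numbers 29 to 42 and 0.72 within 43 to 56, and another ACACA probe set gave 0.15. FADS3, a desaturase family member, was 0.18 ± 0.09 higher (SE) and likewise -0.15 within 29 to 42. ACACA was 1.01 and FADS3 0.33 higher when AA 2 and AA 9 were included. FASN, which builds the chain, was 0.11 higher, SCD, the delta-9 desaturase of milk fat, 0.08 higher, and ELOVL7, an elongase, -0.15 in difference. None of these 3 reached an unadjusted p under 0.05. FASN was -0.09 in difference within 29 to 42, -0.01 within 43 to 56 and -0.05 with the range term. With AA 2 and AA 9 included, FASN was 0.59 and SCD 0.55 higher. The list median was 0.03 within 29 to 42 and 0.01 within 43 to 56.

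The enzymes that activate acetate were higher in KA and a fatty acid transporter was lower, none past the adjusted threshold. Of 16 genes of fatty acid uptake and activation, 8 were higher and 8 lower, with a median of 0.01 (0.07 within 29 to 42 and -0.02 within 43 to 56), and 2 were higher (12.5%, background 4.61%) and 1 lower (6.25%, background 3.7%) at an unadjusted p under 0.05. ACSS1, the mitochondrial acetyl-CoA synthetase, ranged from -0.30 to 0.96 with a median of 0.45 in KA arrays and from -0.30 to 0.19 with a median of -0.01 in AA arrays. Its difference was 0.41 ± 0.12 (SE, adjusted p = 0.251), 9 of 13 KA arrays lay above every AA array, and the value was 0.34 within array numbers 29 to 42 and 0.41 within 43 to 56. Another ACSS1 probe set gave 0.18. ACSS2, its cytosolic counterpart, was 0.30 ± 0.13 higher (SE). ACSS1 was 0.73 and ACSS2 0.91 higher when AA 2 and AA 9 were included.

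SLC27A6, a transporter of long-chain fatty acids, was the member lower in KA. It ranged from -0.58 to 0.12 with a median of -0.29 in KA arrays and from -0.28 to 0.86 with a median of 0.38 in AA arrays. Every KA array lay below the AA median, 7 KA arrays lay below every AA array and 6 AA arrays lay above every KA array. The difference was -0.56 ± 0.14 (SE, adjusted p = 0.212), and it was -0.77 within array numbers 29 to 42 and -0.58 within 43 to 56. AA 2 at -3.21 and AA 9 at -4.18 turned it to 0.16 when they were included.

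Lipid droplet and fat globule genes had a median of 0.07 over 19 members, 14 of them higher, and 2 higher at an unadjusted p under 0.05 (10.5%, background 4.61%). PLIN2, the protein that coats cytoplasmic lipid droplets, ranged from -0.29 to 0.28 with a median of 0.04 in KA arrays and from -0.51 to 0.01 with a median of -0.12 in AA arrays, and 9 of 13 KA arrays lay above every AA array. Its difference was 0.18 ± 0.07 (SE) over all arrays and 0.05 within each range. CIDEA, which promotes droplet growth, was 0.39 ± 0.18 higher (SE), with 0.14 and 0.26 within the ranges. CIDEC and PLIN5, also droplet proteins, were 0.19 and 0.12 higher at an unadjusted p above 0.05. PLIN2 was 0.68, CIDEA 1.37 and CIDEC 0.06 higher when AA 2 and AA 9 were included. The list median was 0.05 within 29 to 42 and 0.02 within 43 to 56.

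The main milk transcripts hardly differed. The 4 caseins, LALBA and PAEP lay between 0.01 and 0.03 higher in KA, with unadjusted p from 0.535 to 0.846. Their differences lay between -0.07 and -0.01 within 29 to 42 and between -0.04 and 0.14 within 43 to 56. With AA 2 and AA 9 included they lay between 0.16 and 0.24. Over 14 genes of milk protein and lactose synthesis the median was 0.02 (-0.04 within 29 to 42 and 0.01 within 43 to 56) and 0 had an unadjusted p under 0.05. SLC35A2, the Golgi transporter of UDP-galactose, was 0.13 ± 0.07 higher (SE) and UGP2, which makes UDP-glucose, was -0.23 ± 0.13 in difference (SE), against 0.24 and -0.03 with AA 2 and AA 9 included. Signals of these abundant transcripts may be near the top of the array's range, which was not tested. Genes of mitochondrial fatty acid oxidation had a median of 0.00 over 16 members (0.08 within 29 to 42 and -0.07 within 43 to 56), with ACADL, a long-chain acyl-CoA dehydrogenase, at -0.15 ± 0.09 (SE) and its second probe set at 0.04.

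The 10 genes with the smallest unadjusted p among those higher in KA are given as values, since none passed the adjusted threshold. LYN, a Src-family kinase, ranged from 0.13 to 0.66 with a median of 0.34 in KA arrays and from -0.73 to 0.15 with a median of 0.01 in AA arrays. The difference was 0.46 ± 0.09 (SE, adjusted p = 0.122), 11 of 13 KA arrays lay above every AA array, and 8 of 9 AA arrays lay below every KA array. AA 11 read -0.73 and AA 8 read -0.42, the lowest of the group. The LYN difference was 0.21 within array numbers 29 to 42 and 0.74 within 43 to 56, and other LYN probe sets gave 0.13 and 0.05.

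MOCS1, an enzyme of molybdenum cofactor synthesis, ranged from -0.05 to 1.09 with a median of 0.69 in KA arrays and from -0.18 to 0.34 with a median of 0.00 in AA arrays, a difference of 0.56 ± 0.11 (SE, adjusted p = 0.122). KA 5 held the lowest KA value, and 10 of 13 KA arrays lay above every AA array. VIPR1, the receptor for vasoactive intestinal peptide, ranged from 0.05 to 1.00 with a median of 0.60 in KA arrays and from -0.60 to 0.43 with a median of 0.05 in AA arrays, a difference of 0.57 ± 0.12 (SE). It also had 10 of 13 KA arrays above every AA array, and its second probe set gave 0.28. The VIPR1 difference was 0.12 within 29 to 42, 0.78 within 43 to 56 and 0.90 with AA 2 and AA 9 included. EIF3B, a subunit of translation initiation factor eIF3, differed by 0.52 ± 0.11 (SE), with KA arrays from 0.09 to 0.97 and AA arrays from -0.35 to 0.36.

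AACS, acetoacetyl-CoA synthetase, which turns ketone bodies into lipid precursors, ranged from 0.03 to 1.01 with a median of 0.66 in KA arrays and from -0.68 to 0.35 with a median of 0.00 in AA arrays, a difference of 0.57 ± 0.13 (SE, adjusted p = 0.135). All 13 KA arrays lay above the AA median. The difference was 0.04 within array numbers 29 to 42 and 0.97 within 43 to 56. A second AACS probe set gave 0.35 (unadjusted p = 0.00726).

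Among the others higher in KA, HGS, which sorts ubiquitinated receptors at endosomes, differed by 0.52 ± 0.12 (SE), CYFIP1, a subunit of the WAVE actin regulator, by 0.33 ± 0.07 and SIRT2, a deacetylase, by 0.40 ± 0.09. Other probe sets gave 0.07 for HGS, -0.08 for CYFIP1 and 0.20 for SIRT2. WDR3, a factor of small ribosomal subunit assembly, differed by 0.30 ± 0.07 (SE), its second probe set gave 0.06, and with AA 2 and AA 9 included it differed by 0.17. CYFIP1 differed by 0.10 within 29 to 42 and by 0.63 within 43 to 56. CYFIP1 and SIRT2 each had 11 of 13 KA arrays above every AA array, as did WDR3.

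LOC506921, a gene without an assigned role, ranged from -0.25 to 0.91 with a median of 0.13 in KA arrays and from -1.13 to 0.10 with a median of -0.62 in AA arrays, a difference of 0.59 ± 0.14 (SE, adjusted p = 0.192). With the range of array numbers as a term its difference was 0.96 and it was the only probe set past the threshold (limma adjusted p = 0.00806). With AA 2 and AA 9 in that model its difference was 0.78, its adjusted p was 0.0921 and 0 probe sets passed, with 5105 at an unadjusted p under 0.05. Its difference was nearly equal within the ranges, 0.97 within 29 to 42 and 0.95 within 43 to 56. A second probe set of the gene gave 0.30 (unadjusted p = 0.0275).

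**Figure D2:**
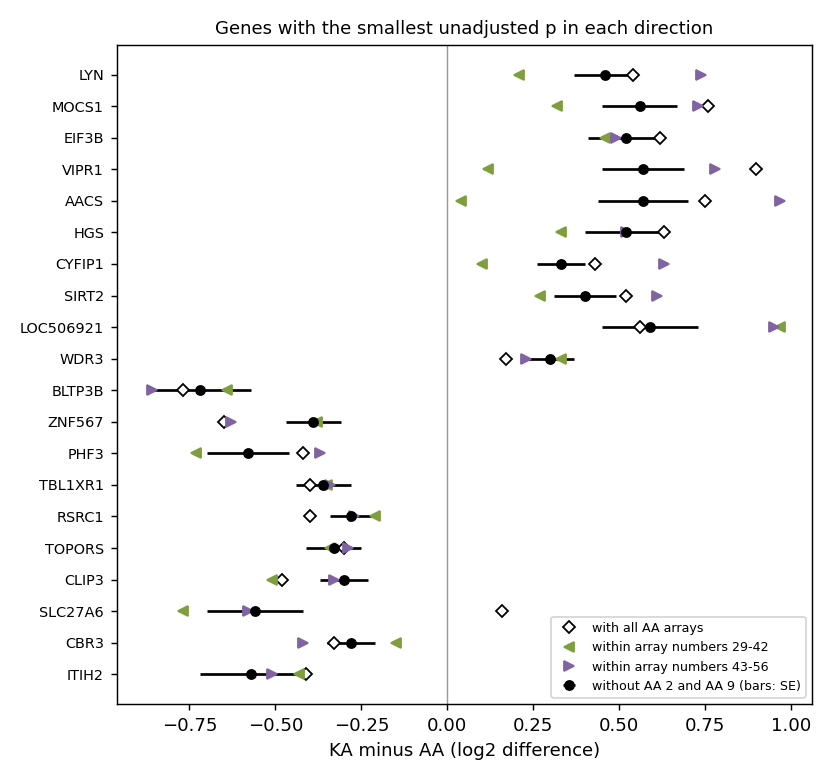
KA minus AA log2 differences of the 10 genes higher and the 10 genes lower in KA with the smallest unadjusted p: black points are the comparison of 13 KA with 9 AA arrays with the SE as bars, open diamonds include AA 2 and AA 9, and triangles are differences within each range of array numbers. Every gene keeps its sign within both ranges, and SLC27A6 alone changes sign when AA 2 and AA 9 are included. The genes were picked by p over the same arrays that the ranges split, which favours equal signs.

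Among the 10 genes lower in KA, BLTP3B, a bridge-like lipid transfer protein, had the lowest difference. It ranged from -0.96 to -0.05 with a median of -0.71 in KA arrays and from -0.67 to 0.95 with a median of 0.04 in AA arrays, a difference of -0.72 ± 0.15 (SE, adjusted p = 0.122). Every KA array lay below the AA median and 8 lay below every AA array. The difference was -0.64 within array numbers 29 to 42 and -0.86 within 43 to 56. KK cows lay 0.17 above AA for this gene.

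PHF3, which binds RNA polymerase II, ranged from -0.57 to 0.22 with a median of -0.26 in KA arrays and from 0.04 to 1.01 with a median of 0.17 in AA arrays, a difference of -0.58 ± 0.12 (SE). In all, 12 of 13 KA arrays lay below every AA array, the most among these 10 genes, and its second probe set gave -0.44 (unadjusted p = 0.000322). ZNF567, a zinc finger protein, ranged from -0.41 to 0.11 with a median of -0.20 in KA arrays and from -0.03 to 0.52 with a median of 0.15 in AA arrays, a difference of -0.39 ± 0.08 (SE). It had 11 of 13 KA arrays below every AA array, and differed by -0.65 with AA 2 and AA 9 included.

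The other genes lower in KA had smaller differences or dimmer signals. TBL1XR1, a subunit of the NCoR corepressor, differed by -0.36 ± 0.08 (SE), and its second probe set gave -0.07. RSRC1, a splicing factor, differed by -0.28 ± 0.06, and TOPORS, a ubiquitin and SUMO ligase, by -0.33 ± 0.08 with other probe sets at -0.12 and -0.11. CLIP3, a microtubule-linked protein, differed by -0.30 ± 0.07 (-0.48 with AA 2 and AA 9 included), CBR3, a carbonyl reductase, by -0.28 ± 0.07 and ITIH2, a heavy chain of the inter-alpha-trypsin inhibitor, by -0.57 ± 0.15 (all SE). ITIH2 lay in the dimmest signal class. All 6 kept a negative difference within both ranges, from -0.15 to -0.51, but they were picked by p over the same arrays.

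With AA 2 and AA 9 included, the 6 genes with the smallest p were LYN (0.54), MOCS1 (0.76), AACS (0.75), CYFIP1 (0.43), BLTP3B (-0.77) and PDHA1 (0.93), none past the threshold. PDHA1, the catalytic subunit of pyruvate dehydrogenase, ranged from 0.07 to 1.06 with a median of 0.68 in KA arrays and from -1.59 to 0.46 with a median of 0.00 in the 9 AA arrays, a difference of 0.75 ± 0.18 (SE). AA 11 held the value of -1.59, and the next lowest AA array read -0.19. AA 11 was also the lowest of the 9 AA arrays for LYN, AACS, VIPR1, SIRT2 and CYFIP1. Among these 9 it had the most probe sets beyond 2-fold, 449, and the highest 3′ minus 5′ value, 0.34. Its other probe sets gave 0.12, -0.01 and 0.27.

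In class II antigen presentation, 9 of 12 members were lower in KA and the median was -0.10. Within array numbers 29 to 42, however, 11 of 12 were higher with a median of 0.20, within 43 to 56 the median was -0.10, and with the range term it was 0.02. The 2 members at an unadjusted p under 0.05 were higher (16.7%, background 4.61%). BOLA-DQA5, a DQ alpha chain of the cattle class II complex, read 3.04 in KA 1, 3.66 in KA 6, 3.29 in KA 8, 4.10 in KA 9 and 3.44 in KA 13. The other 8 KA arrays lay between -0.28 and 0.27, and the 9 AA arrays between -0.28 and 0.03, so only 5 of 13 KA cows were high. The difference of the means was 1.47 ± 0.60 (SE, adjusted p = 0.425). AA 2 and AA 9 read -0.49 and -0.67.

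BOLA-DQB, the DQ beta chain, was high in the same 5 KA cows, at 1.91 in KA 1, 2.50 in KA 6, 1.85 in KA 8, 3.16 in KA 9 and 1.49 in KA 13. The other KA arrays reached at most 0.32, and AA arrays at most 0.53. Of the 4 KK cows, KK 1 was high in both, at 3.75 for BOLA-DQA5 and 2.62 for BOLA-DQB. The high KA cows came from both ranges of array numbers, KA 1 from the lower and the other 4 from the upper. DQ and class I genes of cattle differ between haplotypes in sequence and number, so that a probe set may miss some alleles or bind related copies, and its value is uncertain as the level of 1 gene.

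Class I antigen presentation was lower in KA in 11 of 13 members, with a median of -0.17 and 2 at an unadjusted p under 0.05 (15.4%, background 3.7%). TAP2, a peptide transporter, ranged from -0.98 to 0.50 with a median of -0.35 in KA arrays and from -0.61 to 0.55 with a median of 0.14 in AA arrays, a difference of -0.37 ± 0.18 (SE, adjusted p = 0.509), with -0.25 within 29 to 42 and -0.80 within 43 to 56. PSMB10, an immunoproteasome subunit, differed by -0.38 ± 0.18 (SE) and by 0.03 within array numbers 29 to 42. BOLA-N, a class I heavy chain, ranged from -1.74 to 1.45 in KA arrays and from -1.69 to 3.07 in AA arrays, a difference of -1.19 ± 0.64 (SE), with 3 AA arrays above every KA array. The list median was -0.04 within array numbers 29 to 42 and -0.38 within 43 to 56.

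No marker of lymphocytes passed the adjusted threshold. For T and NK cells, 16 of 22 were lower, with a median of -0.06 (-0.10 within 29 to 42, -0.09 within 43 to 56 and -0.02 without the KA arrays numbered 52 to 55) and 2 at an unadjusted p under 0.05 (9.09%, background 3.7%), both lower. ZAP70, a kinase of the T cell receptor, differed by -0.50 ± 0.21 (SE) and CD3G, a chain of that receptor, by -0.35 ± 0.16 (SE), and the groups overlapped for both. CD3E, another chain, was -0.22 in difference and KLRK1, an NK receptor in the dimmest signal class, -0.14. NCR1, also an NK receptor, went the other way at 0.15 higher, and 0.32 higher with AA 2 and AA 9 included. Within 29 to 42 NCR1 was -0.16 in difference. CD3G was -0.71 and KLRK1 -0.25 in difference when AA 2 and AA 9 were included. In whole tissue, fewer cells of a type and less RNA per cell cannot be told apart. For B and plasma cells, 8 of 10 were lower with a median of -0.09 and 0 at an unadjusted p under 0.05, but within 29 to 42 6 of 10 were higher with a median of 0.09, and within 43 to 56 the median was -0.05. In this list PIGR, the epithelial receptor that carries their antibodies into milk, was 0.40 ± 0.20 higher (SE), and 0.72 higher with AA 2 and AA 9 included. Myeloid markers had a median of 0.12 over 19 members (0.10 within 29 to 42 and 0.11 within 43 to 56) with 0 at an unadjusted p under 0.05.

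Interferon-stimulated genes had a median of -0.03 over 20 members (-0.01 within 29 to 42 and -0.04 within 43 to 56). The list mean of KA 8 was 1.20, against at most 0.17 in the other KA arrays and 0.26 in AA arrays, and OAS1X, an antiviral synthetase, was highest there at 1.28. IFI44L differed by -0.36 ± 0.16 (SE), the only member at an unadjusted p under 0.05 (5.0%, background 3.7%). IRF7, STAT2 and OAS1X, all parts of the interferon response, were 0.15, 0.16 and 0.23 higher at an unadjusted p above 0.05, and other IRF7 probe sets gave 0.03 and -0.03. STAT2 was 0.03 higher with AA 2 and AA 9 included. Among acute phase and antimicrobial genes the median was 0.04 over 17 members (0.06 within 29 to 42 and 0.04 within 43 to 56), with CATHL4, a cathelicidin, at 0.17 ± 0.09 (SE).

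**Figure D3:**
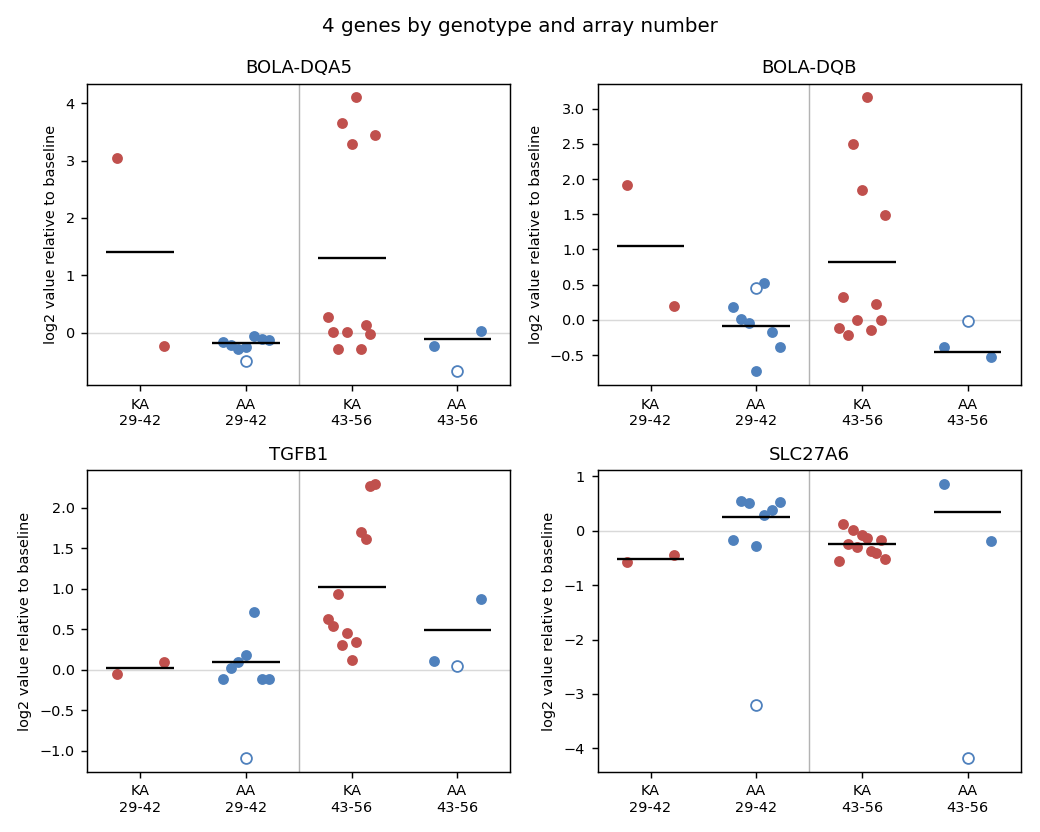
Log2 values relative to the baseline of BOLA-DQA5, BOLA-DQB, TGFB1 and SLC27A6, 1 point per cow, by genotype (KA red, AA blue) and range of array numbers; black lines are means of the filled points, and open points are AA 2 and AA 9. BOLA-DQA5 and BOLA-DQB are high in the same 5 KA cows, TGFB1 is highest in 4 KA cows of array numbers 52 to 55, and SLC27A6 is lower in KA in both ranges while AA 2 and AA 9 lie below -3.

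No marker of the other cell types of the gland passed the adjusted threshold. Endothelial markers had the highest list median, 0.13, with 14 of 17 higher, but the medians were 0.04 and 0.03 within the ranges of array numbers. VWF, a clotting factor made by endothelium, was 0.38 ± 0.16 higher (SE), the only member at an unadjusted p under 0.05 (5.88%, background 4.61%), and its second probe set gave -0.02. EGFL7 and NOS3, further endothelial genes, were 0.25 and 0.16 higher, and each was -0.11 within 29 to 42. The endothelial list mean was 0.21 ± 0.18 in KA arrays (SD, n = 13) and 0.10 ± 0.18 in AA arrays (SD, n = 9).

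Fibroblast and matrix markers had a median of -0.07, with 15 of 25 lower (medians of -0.09 within each range), 2 lower (8.0%, background 3.7%) and 1 higher (4.0%, background 4.61%) at an unadjusted p under 0.05. DPT, a matrix protein of the dermis and other connective tissue, differed by -0.40 ± 0.19 (SE) and MFAP5, of microfibrils, by -0.22 ± 0.11. LOX, which cross-links collagen, was 0.14 ± 0.07 higher and PI16, a fibroblast marker, -0.22 ± 0.11 in difference, against -0.04 and 0.03 within 29 to 42. DPT was -0.73, MFAP5 -0.57 and LOX 0.00 in difference when AA 2 and AA 9 were included. KRT5, a basal keratin of myoepithelium, ranged from -0.80 to 0.23 with a median of -0.15 in KA arrays and from -0.52 to 0.74 with a median of 0.32 in AA arrays, a difference of -0.48 ± 0.17 (SE, adjusted p = 0.338). All 13 KA arrays lay below the AA median for KRT5, and another KRT5 probe set gave 0.04. KRT17 was -0.33 in difference, while CALD1 and SMTN, contractile proteins, were 0.33 and 0.28 higher, and SMTN was -0.03 in difference within 29 to 42. The myoepithelial list had a median of -0.08 over 16 members, with 10 of 16 higher and a median of 0.07 within 29 to 42, a median of -0.24 within 43 to 56, and 1 lower at an unadjusted p under 0.05 (6.25%, background 3.7%).

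Luminal epithelial markers had a median of 0.01 over 18 members (0.11 within 29 to 42 and 0.01 within 43 to 56), with 2 higher at an unadjusted p under 0.05 (11.1%, background 4.61%), CDH2 and ESR1, both in the dimmest signal class. CDH2, N-cadherin, ranged from -0.21 to 1.18 with a median of 0.49 in KA arrays and from -0.29 to 0.44 with a median of -0.09 in AA arrays, a difference of 0.46 ± 0.15 (SE). ESR1, the oestrogen receptor alpha, was 0.21 ± 0.08 higher (SE) and KRT18, a simple-epithelium keratin, -0.59 ± 0.34 in difference (SE), and -1.01 with AA 2 and AA 9 included. Adipocyte markers had a median of 0.09 over 14 members (0.08 within 29 to 42 and 0.04 within 43 to 56), with CEBPA, a transcription factor of fat cells, at 0.15 ± 0.06 (SE) the only one at an unadjusted p under 0.05 (7.14%, background 4.61%).

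Among genes of involution and remodelling the median was -0.02 over 23 members (0.02 within 29 to 42 and 0.07 within 43 to 56). TGFB1, a cytokine that restrains the gland's epithelium, read 1.70 in KA 10, 1.61 in KA 11, 2.27 in KA 12 and 2.29 in KA 13. The other 9 KA arrays lay between -0.05 and 0.93 and the 9 AA arrays between -0.12 and 0.87. The difference was 0.68 ± 0.25 (SE, adjusted p = 0.381) over all KA arrays and 0.19 without these 4, whose array numbers run from 52 to 55, and it was -0.07 within 29 to 42. MMP3, a matrix protease, differed by -0.21 ± 0.09 (SE) with other probe sets at -0.01 and 0.07, and was 0.07 higher within 43 to 56, and each of these 2 genes was 4.35% of the list (backgrounds 4.61% higher and 3.7% lower). Prolactin, growth hormone and IGF signalling had a median of 0.01 over 16 members (-0.07 within 29 to 42 and 0.09 within 43 to 56) with 0 at an unadjusted p under 0.05.

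Chaperones and the unfolded protein response had a median of 0.05 over 20 members (0.14 within 29 to 42 and -0.04 within 43 to 56), with 2 higher at an unadjusted p under 0.05 (background 4.61%). HSPA5, the main chaperone of the endoplasmic reticulum, ranged from -0.27 to 0.75 with a median of 0.17 in KA arrays and from -0.71 to 0.40 with a median of -0.20 in AA arrays. Its difference was 0.34 ± 0.13 (SE, adjusted p = 0.376), with 0.43 and 0.62 within the ranges, and other HSPA5 probe sets gave 0.02 and 0.07. EIF2AK3, the stress kinase PERK, was 0.24 ± 0.12 higher (SE).

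For glutathione and oxidative stress the median was -0.02 over 30 members (0.04 within 29 to 42 and -0.09 within 43 to 56), with 2 higher (6.67%, background 4.61%) and 1 lower (3.33%, background 3.7%). MGST3, a glutathione transferase, was 0.16 higher (0.07 with AA 2 and AA 9 included), GCLM, of glutathione synthesis, 0.18 higher (-0.07 within 29 to 42), GSTT1, a further transferase, -0.35 in difference and GPX1, a peroxidase, -0.25, with a second GPX1 probe set at 0.04. Cell cycle genes had a median of -0.01 over 25 members (0.04 within 29 to 42 and 0.05 within 43 to 56), with CCNB2, a cyclin, at 0.15 and MCM6, of the replication helicase, at -0.34 (second probe set -0.16), and 0 at an unadjusted p under 0.05. CCNB2 was 0.09 and MCM6 -0.71 in difference when AA 2 and AA 9 were included.

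Ribosomal and respiratory chain genes had medians of opposite sign in the ranges of array numbers. Over all 9155 genes the median also changed sign, at 0.03 within 29 to 42 and -0.03 within 43 to 56. Of all genes, 5115 were higher in KA within 29 to 42 and 4050 within 43 to 56. Of 63 cytosolic ribosomal protein genes, 50 were lower in KA, with a median of -0.04. Within array numbers 29 to 42, 61 of 63 were higher in KA with a median of 0.14, and within 43 to 56 only 2 were higher, with a median of -0.21. The list mean of AA 1 was -0.42, while the other AA arrays ran from -0.11 to 0.09 and KA arrays from -0.29 to 0.13. RPL37 alone had an unadjusted p under 0.05 (1.59%, background 4.61%) and was 0.21 ± 0.08 higher (SE). RPS20, another ribosomal protein, was -0.16 in difference, 0.10 higher within 29 to 42 and -0.35 in difference with AA 2 and AA 9 included.

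Of 73 respiratory chain and ATP synthase genes, 46 were higher, with a median of 0.02, and the median was 0.18 within 29 to 42 and -0.12 within 43 to 56. Within 43 to 56 the list mean was -0.18 in AA 10 and 0.17 in AA 11, while KA arrays averaged -0.11. Only AA 11 thus lay above the KA average there. SDHA, the flavoprotein of complex II, ranged from -0.09 to 0.49 with a median of 0.17 in KA arrays and from -0.20 to 0.06 with a median of -0.01 in AA arrays, and 10 of 13 KA arrays lay above every AA array. Its difference was 0.23 ± 0.07 (SE, adjusted p = 0.252), with 0.13 and 0.20 within the ranges. SDHB, the iron-sulfur subunit of complex II, was 0.24 ± 0.10 higher (SE), and these 2 were the only members at an unadjusted p under 0.05 (2.74%, background 4.61%). NDUFA10, of complex I, was 0.14 higher, and 0.27 higher with AA 2 and AA 9 included.

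**Figure D4:**
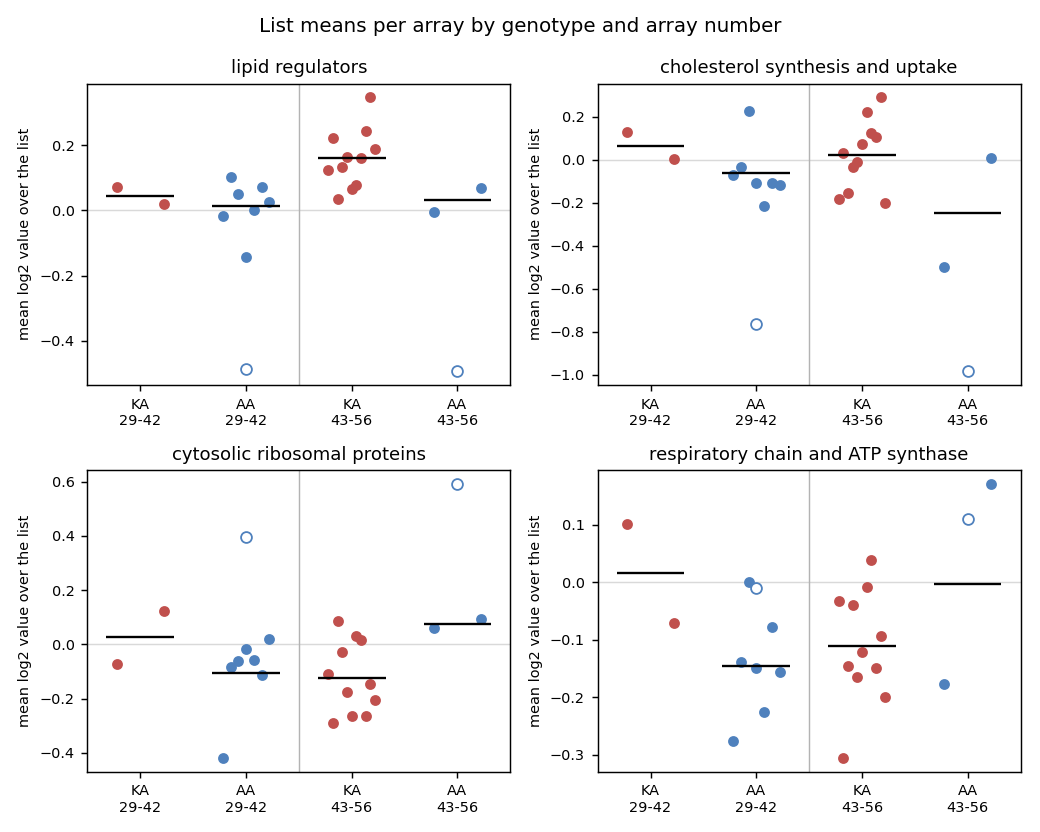
Mean log2 value over the measured genes of 4 lists, 1 point per cow, by genotype (KA red, AA blue) and range of array numbers; black lines are means of the filled points, and open points are AA 2 and AA 9. Ribosomal and respiratory means lie above AA in KA within 29 to 42 and below AA in KA within 43 to 56, while the cholesterol list lies above AA in KA in both. Within 43 to 56 the AA means rest on AA 10 and AA 11. These read -0.50 and 0.01 for the cholesterol list and -0.18 and 0.17 for the respiratory list.

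With AA 2 and AA 9 included, many list medians lay farther from 0. The median of KA minus AA was 0.27 for fat globule and droplet genes, 0.28 for cholesterol genes, 0.22 for triacylglycerol synthesis, 0.19 for fatty acid uptake and 0.20 for milk proteins and lactose synthesis. It was -0.33 for fibroblast and matrix markers, -0.22 for T and NK cell markers, -0.39 for class II and -0.35 for class I antigen presentation, and -0.17 for myeloid markers, against 0.00 over all genes. The background of genes at an unadjusted p under 0.05 also widened, to 9.96% higher and 11.6% lower. Over the 19 fat globule and droplet genes, AA 2 averaged -1.72 and AA 9 averaged -1.99, while the other AA arrays ran from -0.24 to 0.14 and KA arrays from -0.27 to 0.25. Over the 25 measured fibroblast and matrix markers they averaged 0.97 and 1.42, the other AA arrays ran from -0.45 to 0.38 and KA arrays from -0.30 to 0.21. The part of the cell types in these values was not tested.

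**Figure D5:**
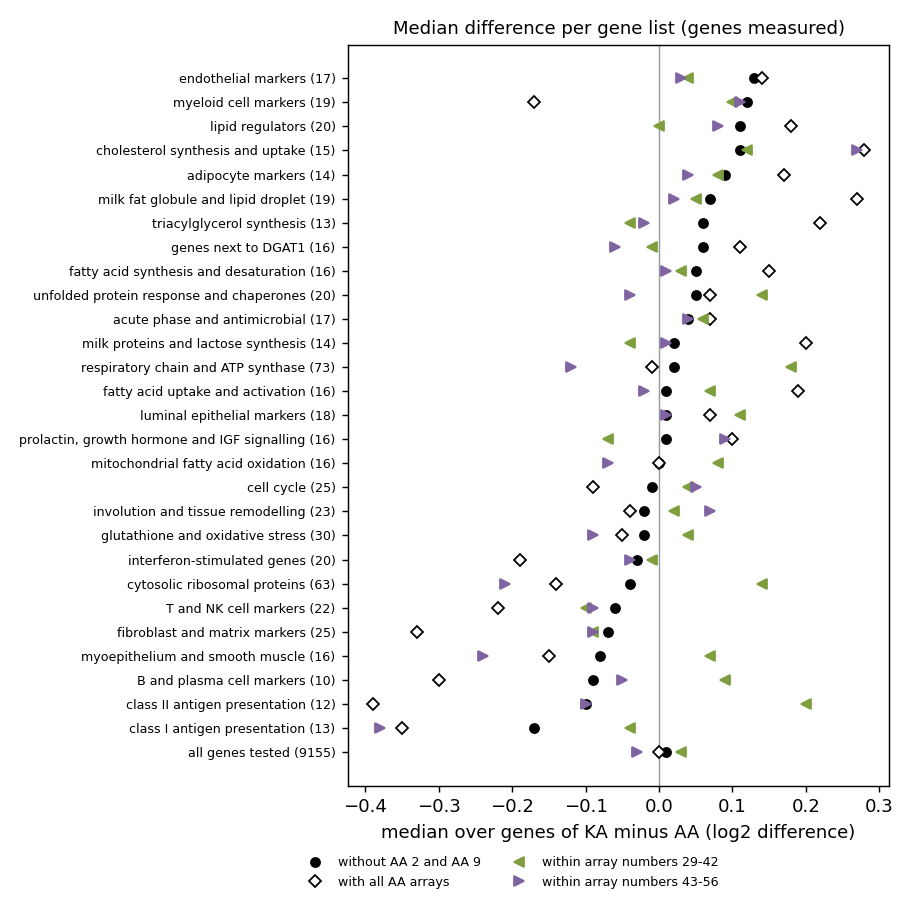
Median KA minus AA log2 difference over the measured genes of each list (number in brackets), without AA 2 and AA 9 (black), with all AA arrays (open) and within each range of array numbers (triangles). Without AA 2 and AA 9 the medians lie between -0.17 and 0.13, and with them between -0.39 and 0.28.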

How the data were processed

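The deposited table held log2 values per probe set for 28 1-colour arrays, each relative to a baseline that no source used here defines, so levels cannot be compared between genes. RMA and GCRMA stand in the submitters' processing notes, with no statement of which gave the values, and Bioconductor 2.7 in R 2.13 is named per the labels' protocol. Array precision is limited by the number of arrays. Of 24128 probe sets, 112 controls were left out and none was filtered. Signal classes (2190 bright, 15142 intermediate, 6684 dim) were read from rounding steps of the values.

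Limma 3.58.1 in R 4.3.3 was fitted with 1 mean per genotype over 13 KA, 9 AA and 4 KK arrays, with Benjamini-Hochberg adjustment over 24016 probe sets. Fits were tested on simulated data. DGAT1 was tested by permutation (scipy 1.17.1 in Python 3.11.15, exact, or 100000 resamples with all AA arrays). Lists were described by counts and medians without a set test, with 1 probe set per gene (9155 genes). Symbols came from GEO's platform annotation: 13292 probe sets had 1 symbol, 86 several and 10638 none, and 13263 were updated through RefSeq (ARS-UCD2.0).

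Named were the 10 genes per direction with the smallest p, DGAT1, up to 4 members per list and 4 neighbours of DGAT1 with an unadjusted p under 0.10 (CYHR1 lies above it), and 6 genes by p with all AA arrays. Well-known milk and lipid genes (caseins, LALBA, PAEP, BTN1A1, FASN, SCD, GPAM, SREBF1, INSIG1, KRT8, KRT19, EPCAM), NCR1 and 1 probe set without a symbol were added after their values were seen. The members and lists were chosen with earlier results of these data known. Arrays came from separate cows. Gene roles are those known in mammals, mostly human and mouse. The alternatives were other normalizations, weights, arrays left out and array number in the model.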

Additional observations from a re-analysis of the deposited data

Results flagged for a closer look

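Of 119 gene and list values, 20 had 1 AA array farther from the other 8 than Dixon's 95% limit for 9 arrays allows (16.8%). The limit is set to mark about 1 in 20 of unselected, separate values. These genes were mostly picked by p, the lists hold some of them, and all were read on the same 9 arrays. The share therefore cannot be set against 1 in 20. The KA group is too large for this rule and was not examined. AA 1 was the distant array in 12 of the 20, AA 11 in 3, AA 10 in 2, and AA 4, AA 5 and AA 8 in 1 each.

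In AA 1, CD3E read -0.42 (nearest array 0.00), DPT -0.99 (0.07), SMTN -0.93 (-0.21), KRT18 -1.24 (-0.06), GPX1 -0.57 (0.00), MCM6 -0.47 (0.01) and SDHB -0.73 (-0.17). The list means of AA 1 were -0.45 for fibroblast and matrix markers (nearest array -0.01), -0.25 for luminal markers (0.04), -0.13 for involution and remodelling (0.02), -0.26 for glutathione and oxidative stress (-0.03) and -0.42 for ribosomal proteins (-0.11).

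In AA 11, CYFIP1 read -0.45 (nearest array 0.06), LOX -0.39 (-0.10) and PDHA1 -1.59 (-0.19). AA 10 held the high values of DGAT1, 0.56 (nearest array 0.12), and VWF, 0.93 (0.28). CIDEA read -1.49 in AA 4 (nearest array -0.71), ZAP70 read -0.52 in AA 8 (-0.04), and the mean of the lipid regulators was -0.14 in AA 5 (-0.02).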

How the results depend on the processing

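Of 90 named genes, 90 kept their direction and stayed short of the threshold under quantile normalization, centring each array on its median, robust variances, a fit of KA and AA arrays alone, and without the KA arrays numbered 52 to 55. With array weights 18 passed, with array number as a covariate 3, with the range of array numbers as a term 1, within 43 to 56 1, and 11 passed when some single array was left out. The named genes were mostly picked by small p over the same arrays, which favours kept directions and passes. Of all probe sets, 0.171% passed with array weights, 0.05% with the covariate and 0.00416% with the range term. Within 43 to 56 the share was 0.025%, and without AA 1 it was 0.108%. The count of probe sets past the threshold, 0 as reported, was 41 with array weights, 1 with the range term, 12 with the covariate, 6 within 43 to 56 and 1 at an adjusted p under 0.10, and 0 to 26 when each array was left out in turn, with 26 without AA 1. The range term with all 28 arrays gave 0 calls, so LOC506921 lost its call there. Probe sets higher in KA at an unadjusted p under 0.05, 1249 as reported, numbered 2589 with all 28 arrays, 1928 with array weights and 547 within 29 to 42. Those lower in KA, 1032 as reported, numbered 2658, 1736 and 370 in the same order, 1707 within 43 to 56, 636 without the KA arrays numbered 52 to 55, and 775 to 1604 when each array was left out.

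The DGAT1 difference lost its call with the range term (0.10), with the covariate (0.17), within 29 to 42 (0.17), within 43 to 56 (0.05) and without the KA arrays numbered 52 to 55 (0.21), and ran from 0.28 to 0.39 when each array was left out. With all 28 arrays the sign of SLC27A6 turned to 0.16. Among genes added after their values were seen, GPAM turned to 0.32 there, and FASN to -0.09 within 29 to 42 and -0.01 within 43 to 56. NCR1 turned to -0.16 within 29 to 42. GPAA1 turned to -0.03 and NOS3 to -0.02 with the range term. Within 43 to 56, GPAA1 was -0.16, CYHR1 -0.02, GPD1 -0.05 and MMP3 0.07. Within 29 to 42, NR1H2 was -0.04, NR1H3 -0.06, TM7SF2 -0.08, ACACA -0.15, FADS3 -0.15, PSMB10 0.03, LOX -0.04, PI16 0.03, SMTN -0.03, NOS3 -0.11, EGFL7 -0.11, TGFB1 -0.07, GCLM -0.07 and RPS20 0.10.

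Medians with all 28 arrays were 0.22 for triacylglycerol synthesis, 0.18 for lipid regulators, 0.15 for fatty acid synthesis, 0.19 for fatty acid uptake, 0.27 for fat globule genes, 0.20 for milk proteins, -0.22 for T and NK cells, -0.17 for myeloid cells, -0.39 for class II, -0.19 for interferon-stimulated genes, -0.33 for fibroblasts, 0.17 for adipocytes and -0.09 for the cell cycle. Within 29 to 42 they were -0.04 for triacylglycerol synthesis, 0.00 for lipid regulators, 0.08 for fatty acid oxidation, 0.20 for class II, 0.14 for ribosomal and 0.18 for respiratory genes. Within 43 to 56 they were -0.02 for triacylglycerol synthesis, -0.07 for fatty acid oxidation, 0.05 for the cell cycle, -0.21 for ribosomal genes and -0.06 for neighbours of DGAT1. The cause of these shifts was not tested.

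No paired analysis was possible because the arrays came from different cows and their replicate numbers only name them. Within each range 1 genotype had 2 arrays, so values there rest on few cows. The values carry no background estimate, so detection of dim probe sets was not tested.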
